A study of Mus musculus with 23 samples.

Results

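The microRNAs miR-132 and miR-212 are made from neighbouring hairpins of a single primary transcript. The deposited counts list 4 mature miRNAs for these hairpins, mmu-miR-132-3p, mmu-miR-132-5p, mmu-miR-212-3p and mmu-miR-212-5p. They were taken by name and not by a measured value out of 1218 mature miRNAs, though earlier results of these data were known. They were counted by small RNA sequencing of the liver in 23 male C57bl/6J mice, each of which gave 1 library. The 8 reference mice came from the control fatty acid lineage, whose growing diet was supplemented with high-oleic sunflower oil over the generations, and received the low-fat standard diet (STD). The 8 HFoleic mice came from the same control lineage and received the high-fat, high-sucrose diet (HFD). The 7 HFepa mice came from the n-3PUFA lineage, supplemented over the generations with a fish oil rich in eicosapentaenoic acid (EPA), and received the same HFD. No group of the n-3PUFA lineage on the STD was analysed here, so HFepa vs. reference differs in lineage and diet at once. All livers were taken in the fasting state, and no transgene or deletion is named for any group.

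Transcription of this shared transcript is a classic target of CREB, the transcription factor that cAMP signalling activates. In neurons the cluster responds to activity and growth factors. In the liver, glucagon signals through cAMP and CREB during fasting, and miR-132 has been tied to hepatic lipid storage. Each hairpin is cut by Dicer into a 5p and a 3p arm, of which usually a single one is loaded into Argonaute in quantity. The loaded arm finds its targets mainly through its seed, bases 2 to 8 from the 5′ end.

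The 4 mature sequences are printed because the seeds define which members can share targets and the remaining bases are what sets their reads apart. All 4 members were matched by name to RefSeq entries on the build GRCm38.p6, and the seed is given in capitals.
miR-132-3p: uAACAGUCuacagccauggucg
miR-212-3p: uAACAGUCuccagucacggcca
miR-132-5p: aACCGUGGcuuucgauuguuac
miR-212-5p: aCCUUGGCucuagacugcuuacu
The 3p arms carried the same seed, AACAGUC, and among 1679 mature mouse names in the RefSeq table these were the 2 names that held it. The seeds ACCGUGG of miR-132-5p and CCUUGGC of miR-212-5p were each held by 1 name. From the 5′ end, miR-132-3p and miR-212-3p were identical over the first 9 bases, and 17 of 22 positions matched in all. Read from miR-132-3p to miR-212-3p, with positions counted from 1 at the 5′ end, they differed by A10C, C14U, U17C, U20C and G22A. No mature sequence other than miR-212-3p came closer to miR-132-3p than these 5 mismatches. The 5p arms were less alike, with 14 of 21 positions matching when miR-212-5p was set back by 1 base.

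The hairpins show where both arms lie in each precursor, and the mature arms are in capitals.
Mir212: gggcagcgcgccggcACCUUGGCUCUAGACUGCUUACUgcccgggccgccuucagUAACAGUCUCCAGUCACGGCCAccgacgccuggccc
Mir132: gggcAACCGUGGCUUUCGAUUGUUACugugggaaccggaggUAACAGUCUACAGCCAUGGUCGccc
On GRCm38.p6 the Mir212 hairpin of 91 bases lies at chr11:75173388-75173478 and the Mir132 hairpin of 66 bases at chr11:75173682-75173747, both on the plus strand. The 203 bases between them hold no other annotated exon of their host. In the GENCODE M21 annotation both hairpins fall within intron 1 of the noncoding gene 1700016P03Rik, which has 3 exons and spans chr11:75172560-75177633 on the plus strand. Neither hairpin overlapped an exon.

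**Figure D1:**
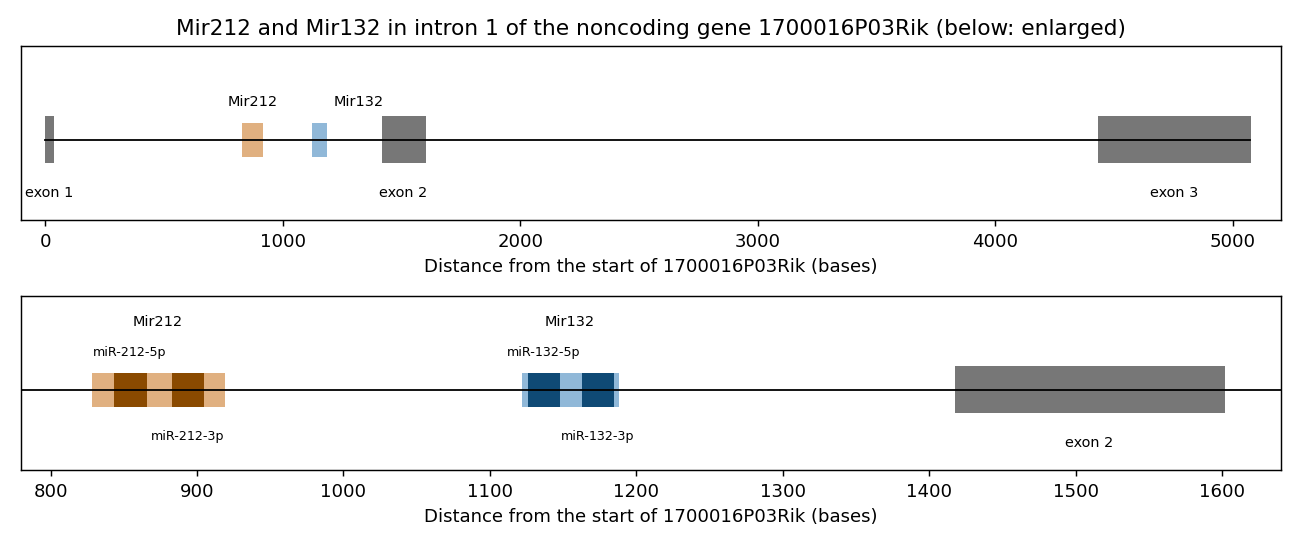
The horizontal axis is the distance in bases from the annotated start of 1700016P03Rik, with its 3 exons in grey, the hairpins in light colours and the mature arms in dark colours; the lower panel enlarges the stretch with both hairpins. Mir212 begins 828 bases and Mir132 begins 1122 bases from the start, and both end before exon 2.

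Library totals were 5242218 to 8139344 counts (median 5981328) in reference, 4340903 to 7220112 (median 5408676) in HFoleic and 3725432 to 4947990 (median 4400595) in HFepa. The summed level of 5 hepatocyte miRNAs, miR-122-5p among them, was 114330 to 268034 CPM (counts scaled to a library of 1e+06) over the 23 libraries, and all 5 were detected in each group. Most of this sum was miR-192-5p, with group means of 189214 to 220678 CPM, against 18660 to 18693 CPM for miR-122-5p. Levels below are CPM scaled with TMM factors, which correct for composition. Of 386 miRNAs with enough counts to be tested, 79 in reference library 3 lay more than 1 log2 unit from the median of the other reference libraries, 62 of them above it. The same count was 8 to 35 in the other 22 libraries. Libraries were numbered 1 to 8 in reference, 9 to 15 and 23 in HFoleic and 16 to 22 in HFepa, so that number and group largely coincide and cannot be told apart over the full series. The labels do not say what the numbers mark.

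All 4 members were detected in every library, at low levels. miR-132-3p was the most abundant with a mean of 27.7 CPM over the 23 libraries, which ranked 201 of 1218 miRNAs. It was followed by miR-212-3p at 3.44 CPM, miR-212-5p at 2.28 CPM and miR-132-5p at 1.52 CPM, ranking 326, 355 and 395. The 4 mature forms are 22 or 23 bases long, so length differs little between them. How well each sequence was captured in the libraries was not measured, so the order is one of reads. miR-132-3p had more counts than each of the other members in 23 of 23 libraries. The next neighbours in this order were less clearly apart, since miR-212-3p had more counts than miR-212-5p in 17 libraries, the same count in 2 and fewer in 4. miR-212-5p had more counts than miR-132-5p in 17 libraries, the same count in 1 and fewer in 5. In all, 3740 reads were counted for the miR-132 hairpin and 723 for the miR-212 hairpin.

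miR-132-3p, the main product of the cluster in these livers, ranged from 22.3 to 95.5 CPM in reference, with a median of 26.02. The highest value was library 3, with 659 counts, and the other 7 reference libraries lay between 22.3 and 30.4 CPM. In HFoleic it ranged from 19.2 to 26.1 CPM with a median of 21.3. In HFepa it ranged from 17.96 to 45.46 CPM with a median of 25.3, where the highest value, 191 counts, was library 19 and the next highest 27.4 CPM. The 3 groups overlapped. The means were 34.5 ± 24.8 CPM (SD, n = 8) in reference, 21.8 ± 2.39 (n = 8) in HFoleic and 26.7 ± 8.92 (n = 7) in HFepa. Without library 3 the reference mean was 25.7 ± 2.67 CPM (n = 7), and without library 19 the HFepa mean was 23.6 ± 3.69 (n = 6).

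miR-212-3p, which shares its seed with miR-132-3p, was also highest in reference library 3. It ranged from 1.46 to 15.8 CPM in reference (median 3.00), and the next value below library 3 was 4.53 CPM. HFoleic libraries held 1.42 to 4.02 CPM (median 3.06) and HFepa libraries 1.265 to 4.998 CPM (median 3.31), with library 19 again the highest of HFepa. The ranges of the 3 groups lay over one another. The means were 4.39 ± 4.72 CPM in reference (2.76 ± 1.11 without library 3), 2.86 ± 0.830 in HFoleic and 3.01 ± 1.46 in HFepa (SD, n = 8, 8 and 7).

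miR-212-5p, the other arm of the Mir212 hairpin, showed another order of groups. It ranged from 0.426 to 5.36 CPM in reference (median 1.48), from 0.289 to 3.65 CPM in HFoleic (median 2.05) and from 1.89 to 3.79 CPM in HFepa (median 3.15). Library 3 was once more the highest reference library, and apart from it the highest reference value was 2.48 CPM, so that groups still overlapped. The means were 1.94 ± 1.49 CPM in reference (1.45 ± 0.596 without library 3), 2.03 ± 1.04 in HFoleic and 2.97 ± 0.603 in HFepa. Within HFoleic, the 3 libraries numbered 9 to 11 averaged 1.16 ± 0.907 CPM and the 5 numbered 12 to 15 and 23 averaged 2.56 ± 0.742.

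miR-132-5p, the scarcer arm of the Mir132 hairpin, was the least abundant member, with 2 to 26 counts per library. The lowest count of 2 has a 95% Poisson interval of 0.242 to 7.22, which covers counting error only. It ranged from 0.357 to 3.77 CPM in reference (median 1.301), from 0.875 to 2.18 in HFoleic (median 1.25) and from 0.709 to 2.38 in HFepa (median 1.59). Libraries 3 and 19 were the highest of their groups here as well. The means were 1.59 ± 1.12, 1.34 ± 0.467 and 1.65 ± 0.554 CPM, differing by less than the spread within each group.

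**Figure D2:**
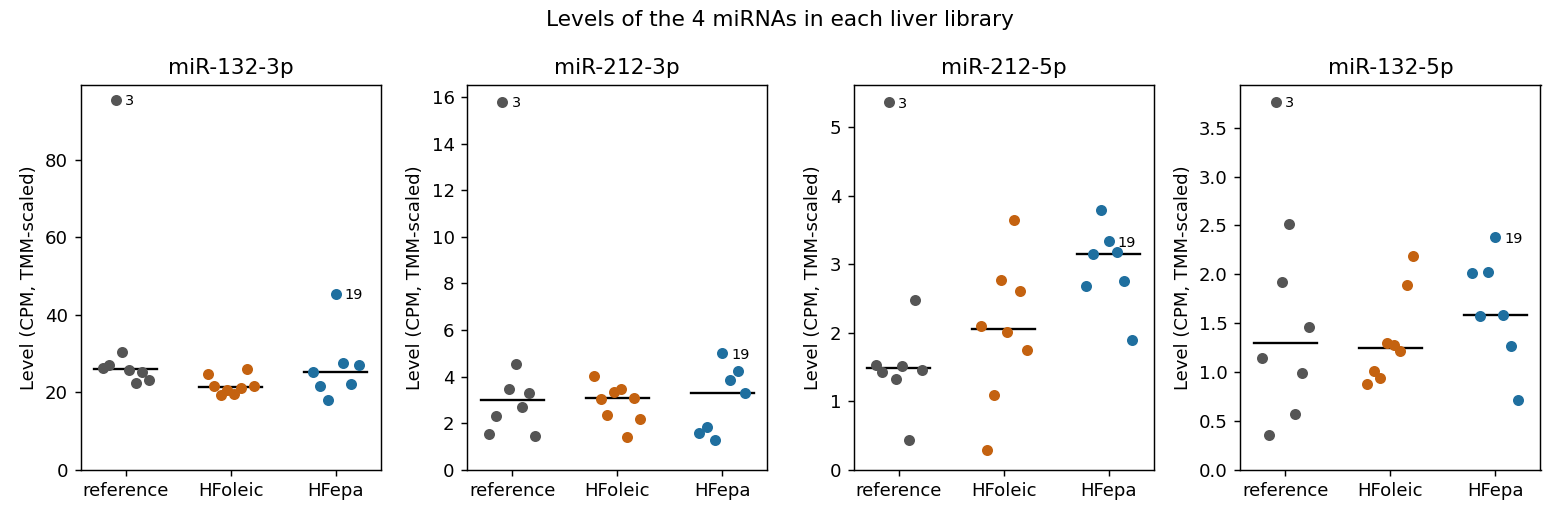
Each point is the level of a member in 1 library, in CPM scaled with TMM factors, by group; the black bar is the group median, and libraries 3 and 19 are numbered. Reference library 3 is the highest of the 8 reference libraries for each of the 4 members, at 95.5 CPM for miR-132-3p, and the points of the 3 groups otherwise overlap.

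HFoleic vs. reference asks what the HFD did to the cluster in the control lineage. By edgeR's quasi-likelihood test over the 386 miRNAs, a miRNA was called where the adjusted p was below 0.05 and the log2 fold change exceeded 0.25 in size. On that rule 0 of the 3 members tested were called, where 48 of all 386 were (12.4%). An unadjusted p under 0.05 by edgeR was reached by miR-132-3p alone among the members, and by 110 of 386 miRNAs (28.5%). DESeq2 and limma on quantile-normalized values also called 0 of 3 members in each of the 3 comparisons. In HFoleic vs. reference both called fewer of all miRNAs than the 48 by edgeR, as given with the alternatives below. Their 0 of 3 therefore says little about the members. miR-132-5p did not pass the filter on low counts and was not tested. With no filter its log2 fold changes were -0.27 ± 0.36 (SE) in HFoleic vs. reference, 0.03 ± 0.38 in HFepa vs. reference and 0.31 ± 0.39 in HFepa vs. HFoleic, with adjusted p by edgeR of 0.712 and above. miR-132-3p had a log2 fold change of -0.66 with a standard error of 0.26 and a 95% interval of -1.196 to -0.127, an unadjusted p of 0.0176 and an adjusted p of 0.103. Without reference library 3 the value was -0.23, with a 95% interval of -0.54 to 0.07 (adjusted p = 0.308 by edgeR). Without library 3 and library 19, an alternative chosen after the data were seen, it was -0.23, with a 95% interval of -0.44 to -0.03. Library 19 is in neither group compared here, so the value did not change when it was also left out. Only the standard error fell, from 0.145 to 0.098, in a fit where all groups share 1 model. Both libraries were the highest of their groups for miR-132-3p, so the narrower interval is not separate evidence of a difference. The fit without libraries 3 and 19 gave an unadjusted p of 0.0259 and an adjusted p of 0.117 by edgeR. Most of the fitted difference therefore rested on library 3. A smaller value of the same sign remained without it, with an interval that included 0 when library 3 alone was left out. miR-212-3p had a log2 fold change of -0.62 ± 0.41 (SE, adjusted p = 0.329 by edgeR), which turned to 0.05 without library 3. miR-212-5p had 0.04 ± 0.39 (adjusted p = 0.968), and its 95% interval of -0.77 to 0.85 leaves room for a change of either sign. Within libraries 1 to 11 alone, where all reference and 3 HFoleic libraries stand, the log2 fold changes of miR-132-3p, miR-212-3p and miR-212-5p were -0.64, -0.47 and -0.75, with adjusted p of 0.670, 0.824 and 0.723 in edgeR.

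HFepa vs. reference compares the supplemented lineage on the HFD with the control lineage on the STD. Here again 0 of 3 members were called by edgeR, against 61 of 386 miRNAs (15.8%). An unadjusted p under 0.05 was reached by 0 of the 3 members and by 110 of 386 miRNAs (28.5%). Both comparisons share the 8 reference libraries. miR-132-3p had a log2 fold change of -0.37 ± 0.27 (SE, 95% interval -0.92 to 0.19, adjusted p = 0.397 by edgeR) and miR-212-3p of -0.55 ± 0.44 (adjusted p = 0.455). Without reference library 3 they became 0.06 and 0.13. miR-212-5p stood at 0.60 ± 0.40 (SE, 95% interval -0.22 to 1.42, adjusted p = 0.339 by edgeR). Without library 3 it was the 1 member called, with a log2 fold change of 1.03, a 95% interval of 0.30 to 1.76 and an adjusted p of 0.0485 in edgeR. In that fit 55 of all 385 miRNAs tested were called (14.3%). Without library 3 and library 19, an alternative chosen after seeing the data, miR-212-5p was at 0.99 with an adjusted p of 0.0759. With a term for libraries 1 to 11 against 12 to 23 it turned to -0.56 ± 0.67 (adjusted p = 0.872 by edgeR). No library numbered 12 or above is a reference library, so no value within either range of numbers could be had.

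HFepa vs. HFoleic compares the lineages on the same HFD. Of the 3 members tested 0 were called, as were 0 of all 386 miRNAs (0%). The lowest adjusted p by edgeR was 0.329, 22 miRNAs and 0 members had an unadjusted p under 0.05, and DESeq2 and limma on quantile-normalized values also called 0 of all miRNAs. miR-132-3p had a log2 fold change of 0.29 ± 0.27 (SE, 95% interval -0.26 to 0.85, adjusted p = 0.968 by edgeR), which was 0.11 without libraries 3 and 19. The values of miR-212-3p and miR-212-5p were 0.08 ± 0.45 and 0.57 ± 0.40, with 95% intervals of -0.853 to 1.004 and -0.267 to 1.398. Among libraries 12 to 23 alone, with 5 HFoleic and 7 HFepa libraries, the log2 fold change of miR-212-5p was 0.21, with a 95% interval of -0.28 to 0.70. These intervals do not show that the lineages were alike: for miR-132-3p they include a log2 difference of 0.85.

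**Figure D3:**
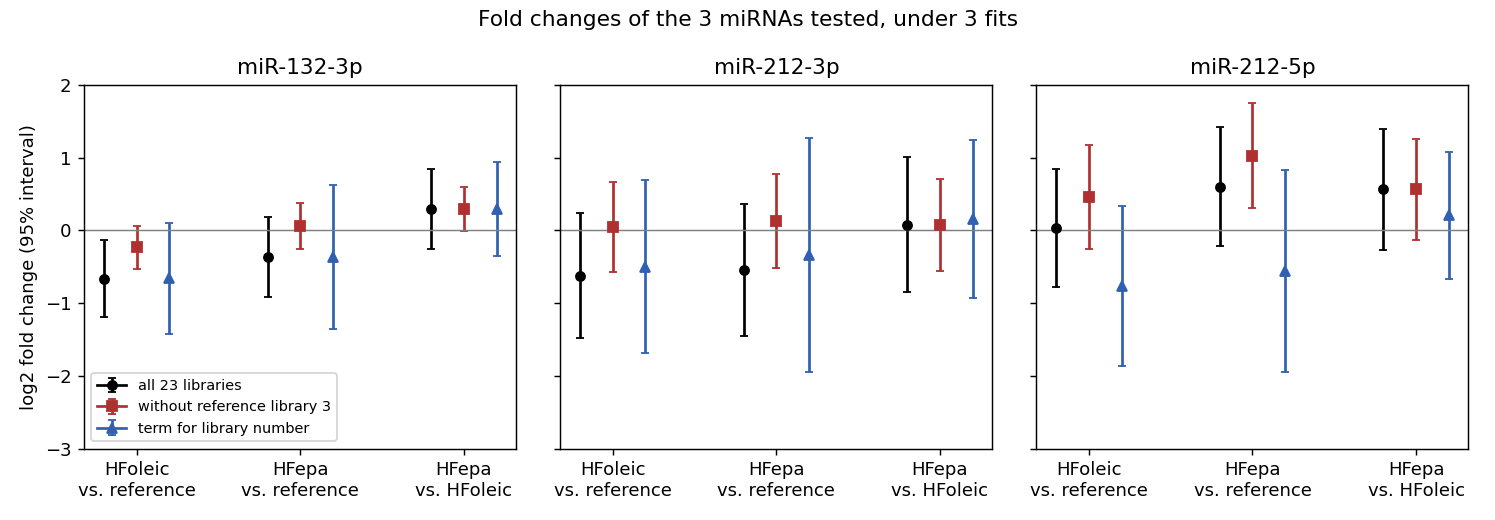
Points are log2 fold changes of the 3 members tested in the 3 comparisons, with 95% intervals, from the fit to all 23 libraries, the fit without reference library 3 and the fit with a term for the library number. miR-132-3p in HFoleic vs. reference goes from -0.66 to -0.23 without library 3, and miR-212-5p in HFepa vs. reference from 0.60 to 1.03 without library 3 and to -0.56 with the term.

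In reference library 3 all 4 products of the cluster were raised at once. miR-132-3p was at 3.72 times the median of the other reference libraries, miR-212-3p at 5.86 times, miR-212-5p at 3.68 times and miR-132-5p at 3.29 times. Counting error alone gave 95% intervals for the ratio to the pooled other reference libraries of 3.35 to 4.07, 4.30 to 7.31, 2.45 to 5.76 and 1.74 to 4.66, in that order. Among the 386 tested miRNAs, miR-212-3p ranked 19, miR-132-3p 33 and miR-212-5p 46 by how far they rose in this library. In HFepa library 19 miR-132-3p was at 1.91 times, miR-212-3p at 1.94 times, miR-132-5p at 1.505 times and miR-212-5p at 1.13 times the median of the other HFepa libraries. Of these, miR-132-3p alone was far from the rest, with a gap to the next library (45.46 against 27.4 CPM) of 0.655 of the group's range, while the next value of miR-212-3p was 4.23 CPM against 4.998 in library 19. The 3p arms ranked 12 and 13 there.

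Marker miRNAs of other cells moved in the same library. In reference library 3 the summed level of the 5 hepatocyte miRNAs was 114330 CPM, against 208358 to 251521 CPM in the other 7 reference libraries, and 0 of 5 were highest there. Of this list, miR-802-5p lay 0.19 log2 units above the median of the other reference libraries. The 5 stellate cell and mural miRNAs summed to 42509 CPM, against 23453 to 33222, and 5 of 5 were highest there. For the 6 leukocyte miRNAs the sum was 3557 CPM, against 1760 to 2800, with 5 of 6 highest there. A list of 5 biliary epithelium miRNAs, added after the data were seen, summed to 1094 CPM, against 151 to 285, with 5 of 5 highest there. The 2 endothelium miRNAs and the 3 red blood cell miRNAs were below the other reference libraries, at 0.736 and 0.610 times their medians. The summed levels of the neuron, the pancreas and endocrine and the muscle lists lay within the range of the other reference libraries. The highest of the others was 108.8 CPM for neurons and 2047.6 CPM for pancreas and endocrine cells, both in library 5. For muscle it was 214.9 CPM, in library 4. The medians of the other reference libraries were 58.0, 26.2 and 5.83 CPM, in that order. The neuron sum in library 3 was 74.6 CPM, and it hides members that rose there. The 4 neuron miRNAs tested, miR-218-5p, miR-129-5p, miR-137-3p and miR-128-3p, deviated by 2.65, 1.68, 0.39 and -0.16 log2 units from the median of the other reference libraries. Libraries 4 and 5 were left out together as an alternative. The part of the listed cell types in the level of miR-132 and miR-212 was not tested. In whole liver, fewer cells of a type and less RNA per cell cannot be told apart. In HFepa library 19 the hepatocyte and endothelium sums, at 0.906 and 0.925 times the median of the other HFepa libraries, lay below each of them, and so did the pancreas and endocrine sum at 0.722 times. Of the hepatocyte list, miR-802-5p went the other way, at 1.17 log2 units above the median of the other HFepa libraries. The stellate cell and mural (1.03 times), leukocyte (1.15), biliary (1.21), red blood cell (1.28), neuron (1.03) and muscle (0.677) sums lay within their range.

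**Figure D4:**
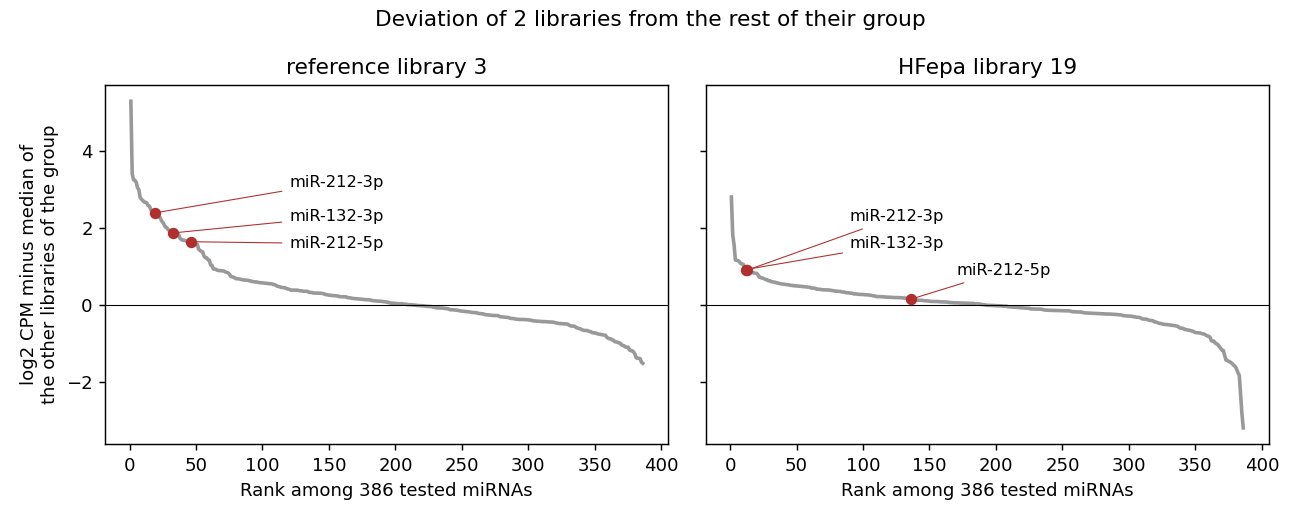
Each curve orders the 386 tested miRNAs by their log2 CPM in 1 library minus the median of the other libraries of its group, against rank; red points are the members. In reference library 3, at left, miR-212-3p, miR-132-3p and miR-212-5p lie at 2.40, 1.88 and 1.65, and in HFepa library 19, at right, at 0.91, 0.93 and 0.16.

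The relative amounts of the members were compared within libraries, where no scaling factor enters. Of the reads with the seed AACAGUC, miR-212-3p gave 10.1% ± 3.52 in reference, 11.53% ± 2.90 in HFoleic and 9.91% ± 3.55 in HFepa (SD, n = 8, 8 and 7). The differences were 1.39 percentage points in HFoleic vs. reference, -0.233 in HFepa vs. reference and -1.62 in HFepa vs. HFoleic. None passed a two-sided exact permutation test, with p of 0.399, 0.903 and 0.341 and adjusted p of 0.598, 0.903 and 0.598. Reference library 3 stood at 14.2% (109 of 768 reads, exact 95% binomial interval 11.8 to 16.9%), within the reference range of 5.48 to 15.0%. The share in that library therefore lay inside the range of its group, near the upper end. miR-212-3p rose more there than miR-132-3p, at 5.61 against 3.69 times the pooled other reference libraries. Counting error alone gave 95% intervals of 4.30 to 7.31 and 3.35 to 4.07 for these ratios.

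The 5p arm was a small part of the miR-132 reads, at 4.54% ± 2.36 in reference, 5.75% ± 1.74 in HFoleic and 6.10% ± 2.35 in HFepa. The 2-sided exact permutation tests of the 3 differences gave p of 0.262, 0.220 and 0.743 for the HFoleic, then the HFepa difference from reference and last HFepa vs. HFoleic. The arms of miR-212 were far more balanced. The share of miR-212-5p, added as a measure after the data were seen, was 34.1% ± 13.2 in reference, 39.9% ± 17.7 in HFoleic and 51.7% ± 15.1 in HFepa. It ranged from 8.70% (2 of 23 reads) in HFoleic library 10 to 75% (15 of 20 reads) in HFepa library 18, and the exact 95% intervals of these libraries were 1.07 to 28.04% and 50.9 to 91.3%. The difference of 17.7 percentage points in HFepa vs. reference had an exact permutation p of 0.0308 and an adjusted p of 0.277 over the 9 tests of shares. Within HFoleic, the share was 24.9% ± 14.1 in the 3 libraries numbered 9 to 11 and 48.9% ± 13.5 in the 5 numbered 12 and above, which stood near the 51.7% of HFepa.

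**Figure D5:**
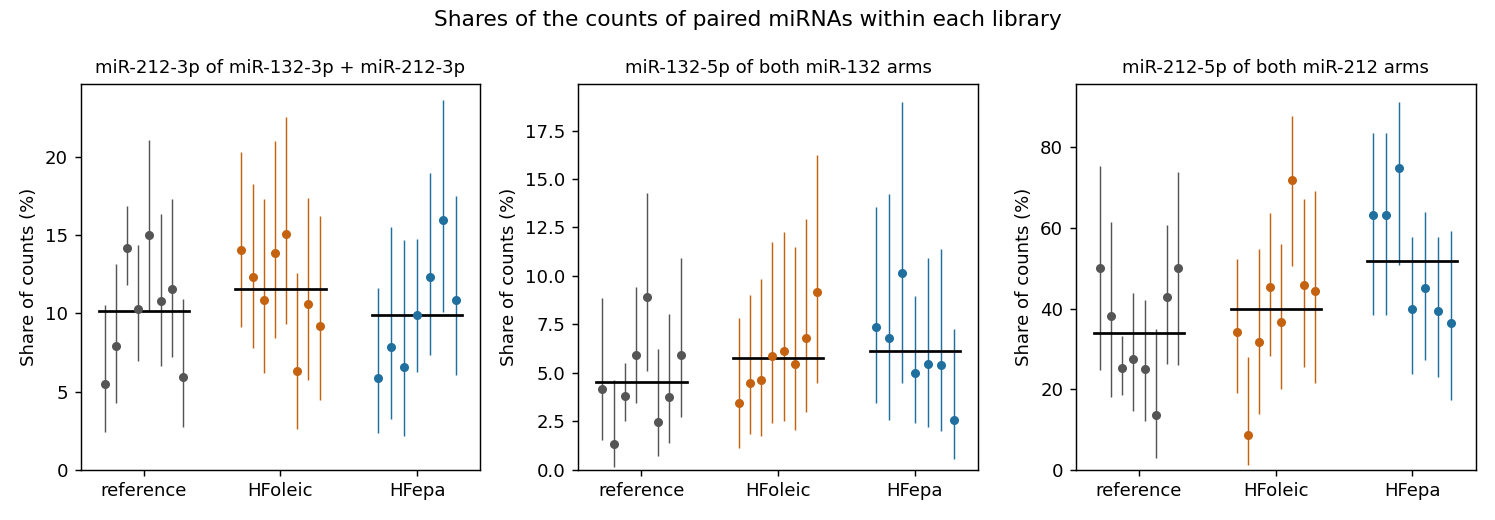
Each point is a percentage of counts within 1 library, with its exact 95% binomial interval, and the black bar is the group mean. miR-212-3p makes up about the same share of the seed family in the 3 groups (means 10.1%, 11.53% and 9.91%), miR-132-5p stays a minor arm, and the mean share of miR-212-5p is 34.1%, 39.9% and 51.7%.

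Whether the members varied together from mouse to mouse was examined within each group on log2 CPM, in 18 relations. In reference, miR-132-3p and miR-212-3p had a Pearson r of 0.88 (exact permutation p = 0.0313, n = 8) and a Spearman coefficient of 0.50 (exact p = 0.216). Without libraries 3 and 4, the farthest from the median, r was 0.12, so that the relation rested on those libraries. In HFepa the same pair had r = 0.70 (exact permutation p = 0.0450, n = 7) and a Spearman coefficient of 0.71 (exact p = 0.0881), and r was 0.24 without libraries 18 and 19. In HFoleic it had r = 0.31 (exact p = 0.458, n = 8), a Spearman coefficient of 0.12 (exact p = 0.793) and, without libraries 9 and 15, r = -0.26. The lowest adjusted p over the 18 relations was 0.172 for Pearson and 0.690 for Spearman coefficients. The lowest p of r were those of miR-132-3p with miR-212-5p in reference, at r = 0.81 (exact permutation p = 0.0228, n = 8, Spearman coefficient 0.33 with exact p = 0.428) and 0.64 without libraries 3 and 4, and of miR-132-5p with miR-212-5p in HFepa, at r = 0.84 (exact permutation p = 0.0278, n = 7, Spearman coefficient 0.75 with exact p = 0.0663) and 0.39 without libraries 19 and 22. The 3 scarcer members had 2 to 37 counts a library, except miR-212-3p with up to 109.

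The miRNAs whose deviations from the group means followed those of miR-132-3p most closely over the 23 libraries were miR-199b-3p (r = 0.89), miR-199a-3p (r = 0.89), miR-195a-5p (r = 0.88), miR-429-3p (r = 0.86) and miR-200a-3p (r = 0.84). miR-199a-3p and miR-199b-3p have the same mature sequence, so their reads cannot be told apart, and miR-199a-3p is also on the stellate cell and mural list. miR-429 and miR-200a belong to the miR-200 family of epithelial cells. All 5 were highest in reference library 3, where miR-199a-3p stood at 1738 CPM (reference median 496) and miR-429-3p at 277 CPM (reference median 44.3). Over the 21 libraries without libraries 3 and 19 the same correlations were 0.34, 0.33, 0.27, 0.39 and 0.39. miR-212-3p, from the same transcript, ranked 16 with r = 0.79 over the 23 libraries and 12 with r = 0.43 over the 21. miR-212-5p ranked 63 with r = 0.49 over the 23 and 148 with r = 0.069 over the 21. These values describe libraries that share their depth and composition, and they fell when both libraries 3 and 19 were left out.

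Among 15 other miRNAs that the literature ties to hepatic lipid storage, all of which were tested, HFoleic vs. reference called 2 as higher and 0 as lower (13.3%, against 12.4% of all tested miRNAs), which is near the background, and their median log2 fold change was 0.082 against -0.0024 over all tested miRNAs. miR-33-5p, which lies in an intron of Srebf2 and acts on cholesterol export, was at 7.43 ± 2.04 CPM in reference and 11.1 ± 1.61 in HFoleic, a log2 fold change of 0.58 ± 0.17 (SE, adjusted p = 0.0278 by edgeR). miR-107-3p, which acts on insulin signalling through caveolin, rose from 980 ± 205 to 1283 ± 127 CPM, a log2 fold change of 0.39 ± 0.12 (adjusted p = 0.0357 by edgeR). Without reference library 3 these were 0.58 and 0.30, with 3 of 15 called against 11.4% of all miRNAs tested there, and with the term for the library number they were 0.54 and 0.33 with 0 called. Of 33 alternatives, 17 called both miRNAs, 7 called 1 of them and 9 called neither. DESeq2 did not call miR-107-3p (adjusted p = 0.0556). In HFoleic vs. reference 6 of the 15 had an unadjusted p under 0.05 by edgeR, against 28.5% of all tested miRNAs. Of these 6, 1 had an adjusted p below 0.05 but a log2 fold change below 0.25. HFepa vs. reference and HFepa vs. HFoleic called 0 of 15 by edgeR, with 4 and 1 at an unadjusted p under 0.05 (28.5% and 5.7% of all tested miRNAs) and median log2 fold changes of -0.00029 and -0.018. In HFepa vs. reference 2 of the 15 had an adjusted p below 0.05 but a log2 fold change below 0.25. miR-34a-5p, a p53 target that rises in fatty liver, had log2 fold changes of 0.31 ± 0.40 and -0.01 ± 0.42 in HFoleic and HFepa vs. reference and did not pass in either (adjusted p = 0.653 and 0.997 by edgeR). Its level was 33.3 ± 37.0 CPM in reference, 41.4 ± 17.6 in HFoleic and 33.3 ± 18.5 in HFepa. In library 3 it lay 2.57 log2 units above the median of the other reference libraries. In library 19 it lay 1.58 above that of the other HFepa libraries. Its fit without these libraries is not given here, so these values do not show that it was unchanged. miR-122-5p, the most liver-specific miRNA, had log2 fold changes of -0.0025 ± 0.12 and -0.00029 ± 0.12 (adjusted p = 0.9996 and 0.9992 by edgeR).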

How the data were processed

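Small RNA libraries of mouse liver were made by the authors with the TruSeq kit and sequenced as single reads. The authors trimmed adapters with the FASTX-Toolkit, aligned reads with Bowtie in ncPRO-seq and deposited raw counts per mature miRNA of miRBase. The submitters' processing notes name bcl2fastq 2.17.1.14 and the build mm10, whereas the methods write GRCm38.p6 and mm9. The counts carry no coordinates. How reads matching several miRNAs were counted is not given in the sources used here. The deposited signal per library (count divided by a size factor), the group means and the authors' columns of fold changes and p-values were not used. The methods name DEGseq, and quantile normalization of the data.

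The 4 members, the lists and the tests were chosen with earlier results of these data known. The miRNAs named are the members, the 5 most correlated with miR-132-3p, up to 4 of 15 steatosis miRNAs (those called first) and marker lists by summed level. From the hepatocyte list, miR-192-5p and miR-802-5p were also named, after their values were seen, and so were the tested miRNAs of the neuron list. Groups came from the lineage and diet labels. edgeR 4.0.16 in R 4.3.3 tested the 386 of 1218 miRNAs that passed filterByExpr by group (99.98% of counts), with TMM factors, 1 model of 3 groups, the quasi-likelihood test and Benjamini-Hochberg adjustment. Log2 CPM used a prior count of 2. Depth was 3725432 to 8139344 counts per library, and intervals of counts and shares cover counting error only. No replicate pair agreed within sampling noise, and the labels do not say whether libraries came from separate cages or litters. Alternatives were DESeq2 1.42.0, quantile normalization with limma 3.58.1, library totals in place of TMM, no filter, only the 2 groups compared, a term for the library number, libraries 1 to 11 or 12 to 23 alone, thinning to 3725432 counts (seed 20200412), leaving out reference libraries 4 and 5, and leaving out each library. Leaving out libraries 3 and 19 was added after the data were seen. Tests were checked on simulated data. Exact permutation tests were two-sided (Python 3.11.15).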

Additional observations from a re-analysis of the deposited data

Results flagged for a closer look

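Levels and shares were each scanned for a library far from the rest of its group, by the gap to the nearest library over the whole range, in 21 sets of 7 or 8 libraries. For normally distributed values chance flags about 1 set in 20, and 4 were flagged. Whether the levels are normally distributed was not tested, and the sets come from the same libraries, so this rate is a rough guide only. Reference library 3 was far above the other reference libraries for miR-132-3p at 95.5 CPM (gap 0.889 of the range), for miR-212-3p at 15.8 CPM (0.785) and for miR-212-5p at 5.36 CPM (0.585). HFepa library 19 was far above the other HFepa libraries for miR-132-3p at 45.5 CPM (0.655). The 3 flags of library 3 come from 1 mouse and are not independent. The shares within libraries gave no flag, library 3 included.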

How the results depend on the processing

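In HFoleic vs. reference, where 48 miRNAs were called, the count was 28 by DESeq2, 10 by quantile normalization with limma, 29 without a filter, 7 with only the 2 groups compared, 1 with the term for the library number, 0 in libraries 1 to 11 alone and 6 without reference libraries 4 and 5. In HFepa vs. reference, where 61 were called, it was 24, 40, 0 and 30 with quantile normalization, the 2 groups, the term and without libraries 4 and 5. Leaving out each library gave 12 to 53 calls in the first, with 12, 24, 21 and 20 without libraries 5, 13, 14 and 15. In the second it gave 32 to 66, with 36, 38, 38 and 32 without libraries 5, 16, 18 and 22. HFepa vs. HFoleic had 0 to 1, the 1 without library 19, also without libraries 3 and 19. The number of members called was 0 to 1 in HFepa vs. reference and 0 in the other comparisons under each alternative. The 1 was miR-212-5p without library 3, where 55 of all 385 miRNAs tested were called (14.3%).

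Leaving out each library, the log2 fold change of miR-132-3p was -0.73 to -0.23, -0.54 to 0.060 and 0.13 to 0.39 for the HFoleic and the HFepa difference from reference and for HFepa vs. HFoleic, in this order throughout. For miR-212-3p it was -0.76 to 0.049, -0.70 to 0.13 and -0.076 to 0.22, and for miR-212-5p -0.15 to 0.46, 0.47 to 1.03 and 0.37 to 0.75. The sign turned for miR-212-5p in HFoleic vs. reference with library totals (-0.083), the library-number term (-0.77), libraries 1 to 11 (-0.75), thinning (-0.093) and without libraries 4 and 5 (-0.10). In HFepa vs. reference it turned with the term (-0.56). For miR-212-3p it turned in HFoleic vs. reference without libraries 3 and 19 (0.049). In HFepa vs. HFoleic that setting (-0.092), quantile normalization (-0.033) and thinning (-0.10) turned it. The cause was not tested.

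The 2 steatosis miRNAs called in HFoleic vs. reference, miR-33-5p and miR-107-3p, were both lost with library totals (where 1 of the list was called lower), quantile normalization, no filter, the 2 groups, the term, libraries 1 to 11, without libraries 4 and 5, without library 5 and without library 14. In HFepa vs. reference 0 of 15 became 1 in 5 alternatives.

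Differences of the miR-212-3p share were 0.721 to 2.13, -1.25 to 0.462 and -2.64 to -0.941 percentage points without each library, and HFepa vs. reference turned to 0.595 without libraries 4 and 5 and 0.347 without 3 and 19. Those of the miR-132-5p share were 0.722 to 1.84, 0.893 to 2.19 and -0.318 to 0.946. They turned to -0.350 in libraries 1 to 11 (HFoleic vs. reference) and -0.584 in libraries 12 to 23 (HFepa vs. HFoleic). Those of the miR-212-5p share were 1.26 to 10.3, 13.8 to 20.3 and 7.39 to 16.4, with -9.12 in libraries 1 to 11 (HFoleic vs. reference). No share passed the adjusted test under any alternative. No paired analysis was possible because the labels give no replicate numbers that the groups share.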
